A study of Mus musculus with 6 samples.

Results

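Macrophage and dendritic cell genes were followed in pancreatic islets, the endocrine clusters of the pancreas, by RNA sequencing of 6 libraries. The set holds 34 genes of the 55421 gene IDs counted, chosen by symbol as markers of macrophages, dendritic cells, monocytes and the Fc receptors and adaptors these cells use. All 34 symbols were found in the count tables through GENCODE M21, the mouse annotation on build GRCm38. The islets came from wild-type C57BL/6 mice in 2 groups of 3 libraries, given either vehicle or the ligand insB:9-23, which is named after an insulin B chain peptide that islet-reactive T cells recognise. The sources used here give no age, sex, dose, route or duration, and nothing says whether mice or isolated islets received the ligand, or whether a library is 1 animal or a pool.

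Macrophages live in every islet under steady conditions. They depend on the growth factor receptor encoded by Csf1r, take up material released by beta cells and present peptides on class II molecules. Mouse islet macrophages also carry the integrin encoded by Itgax, a gene often used for dendritic cells, so Itgax alone does not separate these cells here. Dendritic cells carry antigen to lymph nodes, and the receptor encoded by Ccr7 guides that migration; naive T cells and B cells use the same receptor.

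Total counts lay between 52052808 and 58880189 per library. All genes of the set together made up 0.0187%, 0.0196% and 0.0199% of the vehicle libraries (replicates 1 to 3, the order kept throughout), and 0.0197%, 0.032% and 0.0121% of the insB:9-23 libraries. Values are CPM, counts relative to library sizes scaled by edgeR's TMM method, and 3 counts correspond to 0.0475 to 0.0655 CPM. The libraries also held much exocrine RNA: the 19 acinar marker genes took 14.4% to 17.9% of counts in 5 libraries and 24% in insB:9-23 replicate 3. In insB:9-23 replicate 2 markers of B and plasma cells (12 genes) made up 0.0176% of counts, against 0.00152% to 0.00656% in the other 5 libraries, and the 17 T and NK cell markers took 0.00329% against 0.000273% to 0.000707%. The labels name no batch.

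Of the 34 genes, 31 passed the filter on low counts and were tested. Batf3 and Xcr1, a transcription factor and a chemokine receptor of the cross-presenting dendritic cells, and Cd209a, a lectin of monocyte-derived dendritic cells, did not pass. Batf3 counts were 5, 5 and 0 for vehicle and 3, 23 and 10 with the ligand. Xcr1 had 0, 4 and 8 counts, then 16, 8 and 0. Cd209a had counts in vehicle replicate 1 (17) and insB:9-23 replicate 2 (16) and was at 0 in the other 4 libraries. These counts are too few to show a difference between groups at this depth.

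Spi1 encodes PU.1, the transcription factor on which macrophage development depends, and it binds purine-rich DNA with the core GAGGAA. That core was sought on both strands in the 250 bases before each RefSeq start (build GRCm38.p6), for the 27 genes of the set with such a window. It was present for 12 of 27 genes (44.4%), against 25.9% of the 27025 genes with a window. The longer form GAGGAAGT, which contains the core, was present for 1 of 27 (3.7%), C1qc, against 2.8% of all genes. No enrichment was tested, and a match describes letters and not binding. Of 5 genes that hold the core in their only RefSeq window, with no annotated exon in it, 4 are given below (Itgam is left out, since its counts are uncertain); they are shown as examples of the genes that hold it, with the core or its reverse complement in capitals.
Fcgr1 (chr3:96293970-96294219, minus strand): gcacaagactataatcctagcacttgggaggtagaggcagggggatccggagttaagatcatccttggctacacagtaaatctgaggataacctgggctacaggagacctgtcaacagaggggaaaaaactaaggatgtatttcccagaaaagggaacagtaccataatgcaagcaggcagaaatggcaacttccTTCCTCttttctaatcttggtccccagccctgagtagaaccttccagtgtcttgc
C1qb (chr4:136886201-136886450, minus strand): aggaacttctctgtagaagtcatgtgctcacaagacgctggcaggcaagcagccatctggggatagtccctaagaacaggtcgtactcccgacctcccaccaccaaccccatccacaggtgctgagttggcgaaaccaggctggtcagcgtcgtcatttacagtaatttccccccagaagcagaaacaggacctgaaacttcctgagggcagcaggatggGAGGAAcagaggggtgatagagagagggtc
Cd68 (chr11:69666171-69666420, minus strand): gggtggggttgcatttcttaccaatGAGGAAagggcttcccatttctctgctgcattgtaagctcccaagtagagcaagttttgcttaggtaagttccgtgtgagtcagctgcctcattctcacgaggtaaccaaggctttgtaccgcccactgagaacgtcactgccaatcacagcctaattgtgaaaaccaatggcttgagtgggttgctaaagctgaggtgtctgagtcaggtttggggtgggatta
Trem2 (chr17:48346151-48346400, plus strand): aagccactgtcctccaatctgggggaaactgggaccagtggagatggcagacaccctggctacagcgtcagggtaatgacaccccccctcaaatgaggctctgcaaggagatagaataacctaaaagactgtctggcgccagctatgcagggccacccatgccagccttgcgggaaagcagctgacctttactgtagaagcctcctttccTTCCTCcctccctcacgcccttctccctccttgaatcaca
Each of these 4 windows holds 1 match.

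The macrophage genes with the highest levels stood above every dendritic gene in the vehicle libraries, while other macrophage genes of the set did not. Per kilobase of merged exon, C1qa was at 34.4 ± 15.4 CPM per kb in vehicle (SD, n = 3) and C1qb at 12.2 ± 1.22; these genes encode chains of the complement protein C1q, which macrophages make in quantity. Lyz2, encoding lysozyme M, was at 8.27 ± 2.05 CPM per kb, and Mpeg1, encoding the pore-forming protein perforin-2, at 5.88 ± 0.286. Csf1r was at 2.83 ± 0.197, Cd68, a lysosomal glycoprotein, at 2.35 ± 0.326, and Adgre1, the F4/80 antigen, at 1.87 ± 0.18 CPM per kb. The 3 library ranges of Csf1r and Cd68 did not overlap that of C1qb, while those of Cd68 and Adgre1 overlapped each other.

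The highest dendritic genes were Itgax (1.51 ± 0.182 CPM per kb) and Zbtb46 (0.649 ± 0.0922). Several macrophage genes had vehicle means below that of Itgax: Cx3cr1 (1.45 CPM per kb), Cd14 (1.08), Aif1 (0.972), Ms4a7 (0.713) and Trem2 (0.11). The library ranges of Cx3cr1 and Itgax overlapped. Zbtb46, a transcription factor of classical dendritic cells, is also known from endothelial cells, and 10 endothelial markers took 0.0285% to 0.0439% of counts in these libraries. The remaining dendritic genes were lower: Siglech, a plasmacytoid dendritic cell lectin, was at 0.275 ± 0.0597 CPM per kb, Clec9a, a receptor for dead cells, at 0.252 ± 0.148, Ccr7 at 0.115 ± 0.0714 and Flt3, the receptor for the dendritic growth factor Flt3l, at 0.034 ± 0.0085. Mrc1 (CD206) and Cd163, scavenger receptors typical of macrophages in connective tissue, were at 0.248 ± 0.0286 and 0.0846 ± 0.00724 CPM per kb, both under every library's value for Adgre1.

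**Figure D1:**
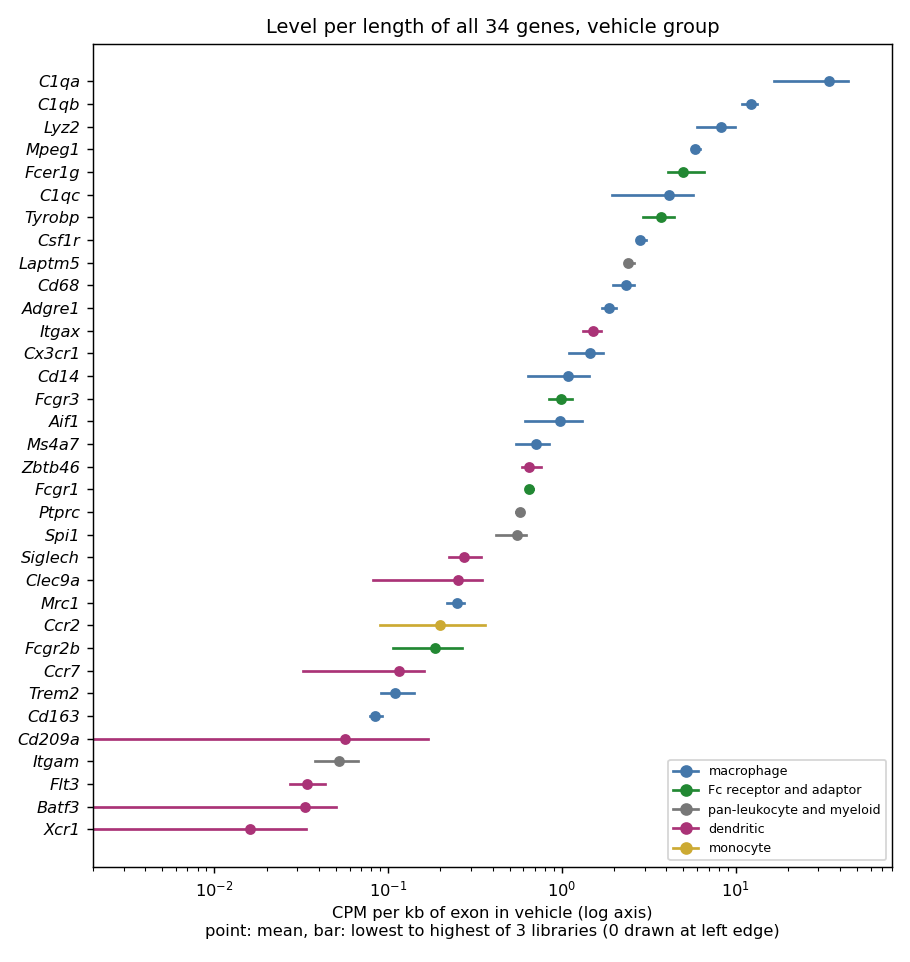
Level of each gene in CPM per kilobase of exon in the vehicle group, on a log axis; points are means and bars run from the lowest to the highest of 3 libraries. C1qa, C1qb and Lyz2 lead, Itgax is the highest dendritic gene, and Flt3, Batf3 and Xcr1 lie at the bottom.

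None of the 31 tested genes passed the edgeR quasi-likelihood test between insB:9-23 and vehicle (Benjamini-Hochberg adjusted p from 0.88 to 0.99), against 0.0823% of the 17016 genes tested. At an unadjusted p below 0.05 there was 1 gene of 31, Ccr7, against 5.55% of all genes. DESeq2 called 1 of the 31, again Ccr7, and 0.685% of all genes with an adjusted p. Groups did not overlap for 4 of the 31 genes (12.9%), against 13.5% of all genes: Ccr7 and Laptm5 above vehicle, as 6.4% of all genes were, and Adgre1 and Fcgr1 below, as 7.12% were. The median log2 fold was 0.058 over the 31 genes and 0.0087 over all genes. In bulk RNA, fewer cells of a type and less RNA per cell cannot be told apart.

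Genes that mark macrophages broadly, Csf1r, Mpeg1 and Cx3cr1, spanned 1.51-fold, 1.77-fold and 1.57-fold from the lowest to the highest library. Csf1r was at 15.6, 17.6 and 15.7 CPM in vehicle against 13.9, 20.1 and 13.3 CPM in insB:9-23 replicates 1 to 3. Mpeg1 was at 26.9, 25.1 and 24.5 CPM, then 24.6, 35.2 and 19.9. In both genes insB:9-23 replicate 2 was the highest library, replicate 3 the lowest, and the groups overlapped. Their log2 folds were -0.05 (95% interval -0.49 to 0.40) and 0.06 (-0.46 to 0.58). Cx3cr1, the fractalkine receptor of tissue macrophages, was at 4.94, 6.94 and 7.74 CPM in vehicle against 6.03, 6.47 and 5.29 CPM with insB:9-23 (log2 fold -0.14, interval -0.65 to 0.37).

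Adgre1 lay lower in all insB:9-23 libraries, without passing the test. It was at 6, 5.51 and 6.67 CPM in vehicle against 5.02, 4.87 and 2.97 CPM with insB:9-23, a log2 fold of -0.50 ± 0.24 (SE; edgeR adjusted p = 0.88). The insB:9-23 values at 5.02 and 4.87 CPM lay close to the lowest vehicle value, and replicate 3 stood apart below them. Cd68 was at 3.07, 3.29 and 2.49 CPM, then 3.28, 2.38 and 2.43 CPM, with overlapping groups. Cd163 was at 0.507, 0.449 and 0.431 CPM in vehicle against 0.478, 0.249 and 0.262 with insB:9-23. Mrc1 was at 1.61, 1.75 and 1.39 CPM in vehicle against 1.5, 0.409 and 1.2 CPM with insB:9-23, so that its low value was in insB:9-23 replicate 2, the library that was highest for Csf1r and Mpeg1.

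The 3 chains of C1q did not keep 1 proportion between libraries. Their genes lie side by side on the minus strand of chromosome 4, C1qb at 136880129 to 136886187, C1qc at 136889804 to 136893065 and C1qa at 136895917 to 136898803, and each has 3 exon blocks. C1qa was at 17.3 CPM in vehicle replicate 1 and at 46.3 and 43.8 CPM in the other vehicle libraries, then 48.2, 53.6 and 34.9 CPM with insB:9-23. C1qb was at 13.7, 11.8 and 14.4 CPM, then 14.2, 15.1 and 8.83 CPM. The C1qa to C1qb ratio was 1.26 in vehicle replicate 1 and 3.04 to 3.96 in the other 5 libraries. C1qc stood at 3.75 CPM in vehicle replicate 2 and 5.14 CPM in insB:9-23 replicate 2, against 8.52 to 10.9 CPM in the other 4. The low C1qa value was thus in vehicle replicate 1 and the low C1qc values in replicate 2 of each group, and none of the 3 differed between groups beyond that spread (log2 folds 0.35 ± 0.39, -0.07 ± 0.22 and 0.02 ± 0.46 for C1qa, C1qb and C1qc, SE).

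Lyz2 (chromosome 10, 117277331 to 117282321) had the widest range among the macrophage genes. It was at 13.1, 7.87 and 11.7 CPM in vehicle against 11.6, 61.8 and 6.29 CPM in insB:9-23 replicates 1 to 3. The value in insB:9-23 replicate 2 was 4.73 times the next highest library, and replicate 3 was the lowest of all. The log2 fold was 1.29 ± 0.87 (SE; edgeR adjusted p = 0.89) and became -0.28 without insB:9-23 replicate 2. Its neighbour Lyz1 shares 15.4% of the 50-base words of the Lyz2 transcripts, so the counting could split such reads; Lyz1 had 0 to 8 counts in 5 libraries and 56 in insB:9-23 replicate 2, where Lyz2 had 3475.

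Smaller macrophage genes varied without an order by group. Aif1, encoding the actin-binding protein IBA1, was at 1.54, 0.946 and 1.99 CPM, then 1.35, 3.11 and 1.09. Trem2, a lipid receptor, was at 0.697, 0.481 and 0.45 CPM, then 1.16, 0.516 and 0.284. Ms4a7, a membrane protein of macrophages, was at 3.36, 2.42 and 3.75 CPM, then 2.68, 3.97 and 1.73. In Trem2 and Ms4a7 the insB:9-23 libraries held values above and below the vehicle range, and in Aif1 1 value above it. Cd14, the lipopolysaccharide co-receptor with a single exon, was at 2.01, 2.48 and 1.11 CPM, then 1.01, 2.45 and 1.16. It had a high and a low level within both groups.

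**Figure D2:**
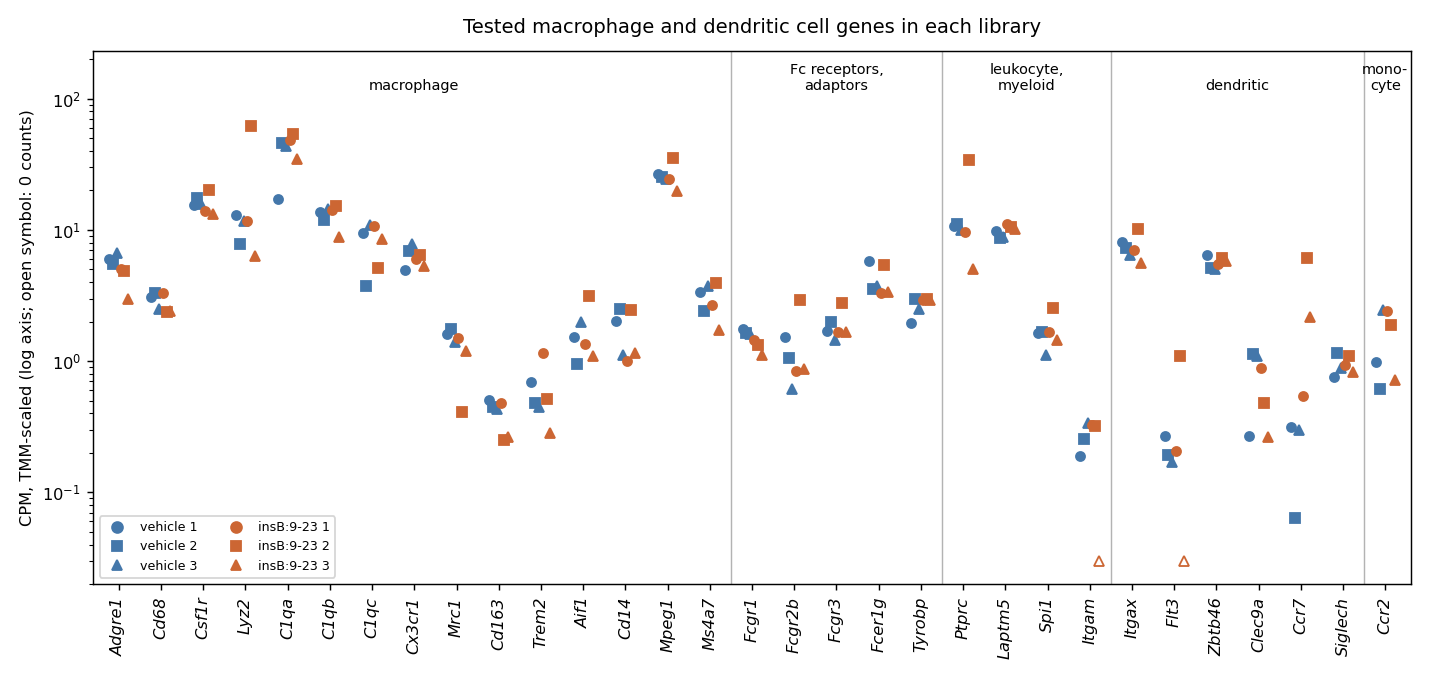
CPM of the 31 tested genes in each of the 6 libraries on a log axis, with open symbols for 0 counts and groups of genes parted by lines. Lyz2, Ptprc, Flt3 and Ccr7 stand high in insB:9-23 replicate 2, while Csf1r, Cx3cr1, Laptm5 and Zbtb46 form tight clusters.

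Fc receptors and their adaptors link antibody binding to activation or restraint of the cell. Fcgr1, the high-affinity activating receptor, was at 1.77, 1.65 and 1.61 CPM in vehicle against 1.45, 1.32 and 1.11 CPM with insB:9-23. All insB:9-23 libraries lay below all vehicle libraries, with a log2 fold of -0.37 ± 0.23 (SE; edgeR adjusted p = 0.88). Fcgr2b, the inhibitory receptor, which B cells also express, was at 1.54, 1.06 and 0.618 CPM, then 0.837, 2.93 and 0.874 CPM, highest in insB:9-23 replicate 2. Fcgr3, an activating receptor, was at 1.69, 1.97 and 1.46 CPM, then 1.66, 2.79 and 1.68 CPM, highest in the same library. Fcgr2b and Fcgr3 share part of their sequence, 4.38% and 9.58% of the 50-base words of each with other genes, so reads could be split between them.

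The adaptors differed in their pattern. Tyrobp, encoding DAP12, the signalling partner of Trem2, was at 1.95, 2.96 and 2.49 CPM in vehicle against 2.94, 2.97 and 2.93 CPM with insB:9-23, within the vehicle range apart from 1 value at its top (log2 fold 0.25, interval -0.28 to 0.78). Fcer1g, the common signalling chain of Fcgr1 and Fcgr3, was at 5.78, 3.56 and 3.73 CPM, then 3.28, 5.42 and 3.36 CPM. Each group thus held 1 Fcer1g value well above its other two.

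Ptprc encodes CD45, carried by all leukocytes. It was at 10.7, 11 and 10 CPM in vehicle against 9.66, 33.8 and 5 CPM in insB:9-23 replicates 1 to 3, so the vehicle libraries were close together and the treated ones lay on both sides of them. The log2 fold was 0.61 ± 0.68 (SE; edgeR adjusted p = 0.92) and -0.53 without insB:9-23 replicate 2. Laptm5, a lysosomal protein of blood cells, was at 9.89, 8.73 and 8.81 CPM in vehicle against 11, 10.6 and 10.1 CPM with insB:9-23. Every treated library lay above every vehicle library, but by little. The log2 fold was 0.21 ± 0.11 (SE, edgeR adjusted p = 0.88), and 0.063 by library totals alone. This separation depended on the scaling: the TMM factor was 0.8057 in insB:9-23 replicate 3 and 1.004 to 1.083 in the others. Relative to library totals that replicate, with 462 counts of 56868559, lay below vehicle replicate 3, with 470 of 52052808. Spi1 was at 1.65, 1.68 and 1.12 CPM, then 1.67, 2.56 and 1.44.

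Itgam, encoding CD11b, was counted at 12, 16 and 18 in vehicle and 19, 18 and 0 with insB:9-23. These counts are uncertain. Of the 50-base words of its transcripts, 66.3% also occur in other genes, most in Gm49368, an annotated gene on the same strand whose exons overlap its own, and such reads could be assigned to either or left out. Gm49368 had 52, 5 and 35 counts, then 26, 46 and 16. Clec9a likewise overlaps exons of Clec1b, which had at most 10 counts in any library. Csf1r, Cx3cr1 and Fcgr2b have exons that overlap those of antisense genes.

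Of the 6 tested dendritic genes, Itgax, Zbtb46 and Siglech varied least, by 1.82-fold, 1.28-fold and 1.52-fold from the lowest to the highest library. Itgax (chromosome 7, 128129547 to 128150657) was at 8.14, 7.28 and 6.39 CPM in vehicle against 7, 10.2 and 5.59 CPM with insB:9-23 (log2 fold 0.06, interval -0.54 to 0.67). Zbtb46 was at 6.43, 5.14 and 5 CPM, then 5.51, 6.08 and 5.83 CPM (log2 fold 0.07, interval -0.32 to 0.46). Siglech was at 0.76, 1.15 and 0.881 CPM, then 0.939, 1.1 and 0.83. In all 3 genes the groups overlapped.

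Ccr7 (chromosome 11, 99144196 to 99155077) had the largest fold of the set. It was at 0.317, 0.064 and 0.3 CPM in vehicle, from 20, 4 and 16 counts, and at 0.546, 6.08 and 2.16 CPM with insB:9-23, from 32, 342 and 99 counts. All treated libraries lay above all vehicle libraries, but they spanned 11.1-fold among themselves. The log2 fold was 3.68 ± 1.06 (SE, 95% interval 1.07 to 6.30; edgeR adjusted p = 0.88, DESeq2 adjusted p = 0.019). Without insB:9-23 replicate 2 it was 2.57 (edgeR adjusted p = 0.76), and over all edgeR alternatives the adjusted p lay between 0.549 and 0.993.

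Flt3 and Clec9a, the other tested dendritic genes beside Ccr7, and the monocyte gene Ccr2 went different ways. Flt3 was at 0.269, 0.192 and 0.169 CPM, then 0.205, 1.1 and 0 CPM, so insB:9-23 held both the highest and the lowest library. Clec9a was at 0.269, 1.14 and 1.09 CPM in vehicle against 0.888, 0.48 and 0.262 CPM with insB:9-23. Ccr2, the receptor that brings monocytes out of the bone marrow, was at 0.981, 0.609 and 2.45 CPM, then 2.41, 1.89 and 0.721 CPM. Neither Clec9a nor Ccr2 separated the groups.

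A comparison of the dendritic with the macrophage genes of the set within each library gave values that overlapped between the groups. The summed CPM of the 9 dendritic genes was 13.8%, 11.1% and 9.51% of that of the 15 macrophage genes in vehicle, and 10.6%, 12% and 13.8% with insB:9-23. With medians of log2(CPM + 0.1) over the 6 tested dendritic and 15 macrophage genes in place of sums, the percentages were 11.9%, 32.4% and 15.9% in vehicle and 19.8%, 54.8% and 47.2% with insB:9-23. The groups overlapped in both measures, but the log2 difference between them was 0.09 with sums and 1.02 with medians. Itgax and Zbtb46 made up 62.8% to 88.1% of the dendritic sum. As stated above, islet macrophages also carry Itgax and Zbtb46 is known from endothelial cells, so these percentages are not a share of dendritic cell RNA. Without these 2 genes, a comparison chosen after the values were seen, the percentages were 1.64%, 1.97% and 1.76% in vehicle and 1.99%, 4.46% and 3.21% with insB:9-23. The treated libraries then all lay above the vehicle libraries, replicate 1 only just. Ccr7 had the most counts of the 7 remaining genes in insB:9-23 replicates 2 (342, next 62) and 3 (99, next 38). In insB:9-23 replicate 1 it had 32, below Siglech at 55 and Clec9a at 52. The ratio was not computed without Ccr7, so this separation does not show a shift in the other genes. No test was made of a score over these genes.

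In insB:9-23 replicate 2 some leukocyte genes stood far above all other libraries. Of the 31 tested genes, 4 (12.9%) were more than 2-fold above the highest of the other 5 libraries there, Lyz2, Ptprc, Flt3 and Ccr7, against 1.44% of all 17016 genes. This threshold was chosen after the values were seen. The same held for 11 of 15 tested T and NK cell markers (73.3%) and 8 of 12 B and plasma cell markers (66.7%). Ms4a1 (CD20), for example, had 1135 counts in that library and 10 to 129 in the others, and Cd3g had 222 against 14 to 46. None of the T and NK or B and plasma cell markers was at 0 in all libraries. The part of lymphocytes in the high Ptprc, Ccr7 and Fcgr2b values was not tested. With the summed lymphocyte marker level as a covariate, an alternative added after the values were seen, the log2 fold of Ptprc went from 0.61 to -0.09, that of Fcgr2b from 0.53 to 0.20, that of Lyz2 from 1.29 to 0.36 and that of Flt3 from 1.05 to -1.14. Ccr7 was at 3.40 in that fit, against 3.68 without the covariate. As without it, 0 of the 31 genes and 14 of all 17016 were called. The covariate was highest in insB:9-23 replicate 2 and lowest in insB:9-23 replicate 3. Such a fit cannot separate lymphocyte RNA from other traits of these libraries. Without insB:9-23 replicate 2 and without the covariate, the log2 folds were also lower: Ptprc -0.53, Fcgr2b -0.325, Lyz2 -0.28, Flt3 -0.99 and Ccr7 2.57. Neutrophil RNA was near absent, with Ly6g and Mpo at 0 in every library and the 10 neutrophil markers at 0.284 to 1.98 summed CPM. Of the 7 mast cell markers, Tpsb2, Ms4a2 and Fcer1a were at 0 throughout, and Kit held 98.7% of their sum.

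Many genes of the set were low in insB:9-23 replicate 3. It was the lowest of the 6 libraries for 13 of 31 tested genes (41.9%), against 18.7% of all genes. That library was also the lowest for 9 of 10 mesenchymal, 7 of 10 endothelial and 5 of 5 red blood cell markers. The macrophage sum was 108 CPM there, while it was 120, 137 and 147 CPM in vehicle and 146 and 215 CPM in insB:9-23 replicates 1 and 2. That library also had the highest acinar share, 24%, the part of which in these low values was not tested. When the acinar level was added as a covariate, the median log2 fold of the 15 macrophage genes was 0.142, against -0.067 without it. The log2 fold of Ptprc went from 0.61 to 1.27, that of Flt3 from 1.05 to 2.16 and that of Fcgr2b from 0.53 to 1.22. The covariate was highest in insB:9-23 replicate 3, and such a fit cannot separate acinar RNA from other traits of that library. Without that library and without the covariate, the macrophage median was 0.0629 and the log2 fold of Ptprc was 1.04. With the covariate, an unadjusted p below 0.05 was reached by 5 of the 31 genes, against 1 without it, and 0 were called in either fit. Over all 17016 genes it was reached by 843 with the covariate and 944 without it.

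**Figure D3:**
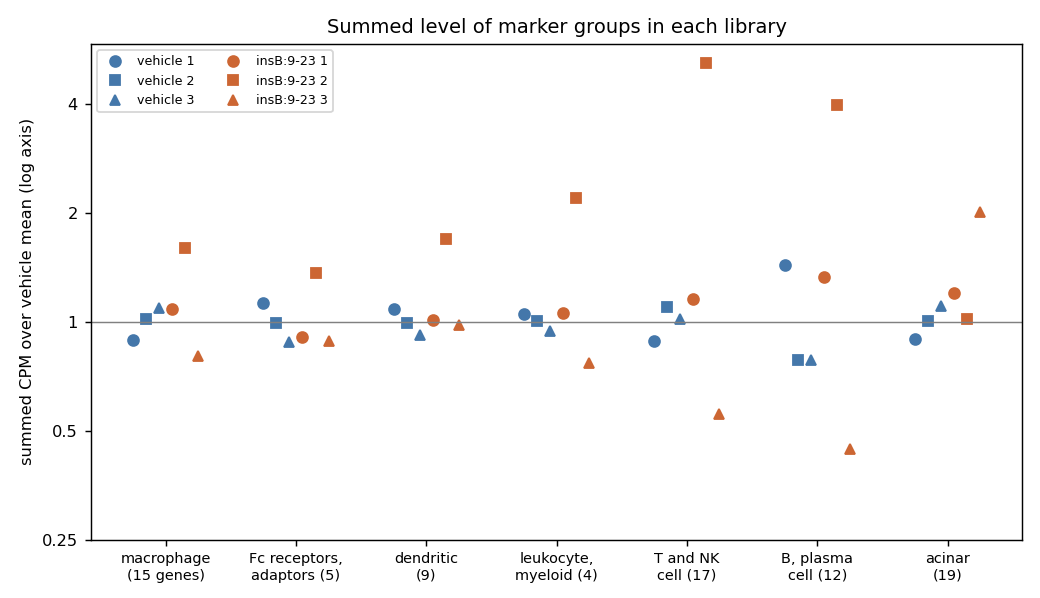
Summed CPM of gene groups in each library, divided by the mean of the 3 vehicle libraries, on a log axis. The macrophage, Fc receptor and adaptor, dendritic, and leukocyte and myeloid sums of insB:9-23 replicate 2 lie above those of the other 5 libraries by less than its T and NK and B and plasma cell markers do, and insB:9-23 replicate 3 is high for acinar markers.

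No growth factor or ligand of these cells passed the test. Of 13 such genes 9 were tested, and 0 passed the edgeR test, against 0.0823% of all genes. An unadjusted p below 0.05 was reached by 1 (11.1%), against 5.55% of all genes. Csf1, the ligand of the Csf1r receptor, was at 17.4, 18.2 and 17.1 CPM in vehicle against 17.7, 18.2 and 14.7 CPM with insB:9-23. Gas6, a bridge to the receptors that clear dying cells, was at 19.8 ± 2.77 and 18.1 ± 0.621 CPM (SD, n = 3). Cx3cl1, the ligand of Cx3cr1, was at 3.61, 24 and 18.8 CPM, then 4.8, 20.3 and 17.9 CPM, so replicate 1 of each group was low. Ccl2, the chemokine that Ccr2 binds, was at 0.412, 0.401 and 0.244 CPM in vehicle against 0.717, 1.9 and 2.14 CPM with insB:9-23. The insB:9-23 libraries lay above without overlap, as for 6.4% of all genes (log2 fold 2.16 ± 0.52, SE, edgeR adjusted p = 0.83). Ccl12, another such chemokine, was at 0.267 ± 0.174 and 0.151 ± 0.063 CPM. Ccl19 and Ccl21a, the chemokines of lymph node stroma that Ccr7 binds, did not pass the low-count filter and were chosen after their values were seen. Ccl19 had 9, 1 and 5 counts in vehicle and 8, 183 and 4 with insB:9-23, and Ccl21a, which has near-identical copies, had 4, 5 and 1, then 13, 185 and 0. Both were thus counted mainly in insB:9-23 replicate 2, the library with the most Ccr7 counts.

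Further macrophage, dendritic and monocyte genes gave the same count of calls. None of 35 tested macrophage genes outside the set, of 19 dendritic genes or of 8 monocyte genes passed the edgeR test. An unadjusted p below 0.05 was reached by 1, 0 and 1 of them (2.86%, 0% and 12.5%), against 5.55% of all genes. Apoe, a lipid carrier, was at 119 ± 8.32 CPM in vehicle against 115 ± 22.5 with insB:9-23, and Sirpa, the receptor of the CD47 signal, at 120 ± 10.6 and 112 ± 2.92 CPM. Tlr4, the lipopolysaccharide receptor, was at 1.14, 1.44 and 1.09 CPM in vehicle against 0.188, 0.124 and 0.743 CPM with insB:9-23. The insB:9-23 libraries lay below without overlap, as for 7.12% of all genes (log2 fold -1.81 ± 0.71, SE, edgeR adjusted p = 0.88). Msr1, a scavenger receptor, was at 0.121 ± 0.0628 and 0.398 ± 0.293 CPM.

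Among the wider dendritic genes the most abundant, Epcam (100 ± 19.4 and 104 ± 1.27 CPM) and Cd24a, are epithelial genes as well, and Tcf4 (23.2 ± 1.84 and 25.6 ± 7.3 CPM), a factor of plasmacytoid cells, is broadly expressed. Cd24a was at 0.41 CPM in insB:9-23 replicate 1 and 52.3 to 108 CPM elsewhere. Naaa was at 8.74 ± 0.651 and 6.57 ± 1.46 CPM. Irf4, a factor of dendritic cells and of B and plasma cells, was at 4.75 CPM in insB:9-23 replicate 2 and 0.192 to 0.615 CPM in the other 5. Of the monocyte genes, Nr4a1, also an immediate-early gene of many cells, was at 96.4 ± 4.31 and 142 ± 12.5 CPM (edgeR adjusted p = 0.23). Ace was at 22.1 ± 2.43 and 23.5 ± 3.39 CPM, and Fn1, fibronectin, at 5.27 ± 1.78 and 5.15 ± 3.41 CPM.

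**Figure D4:**
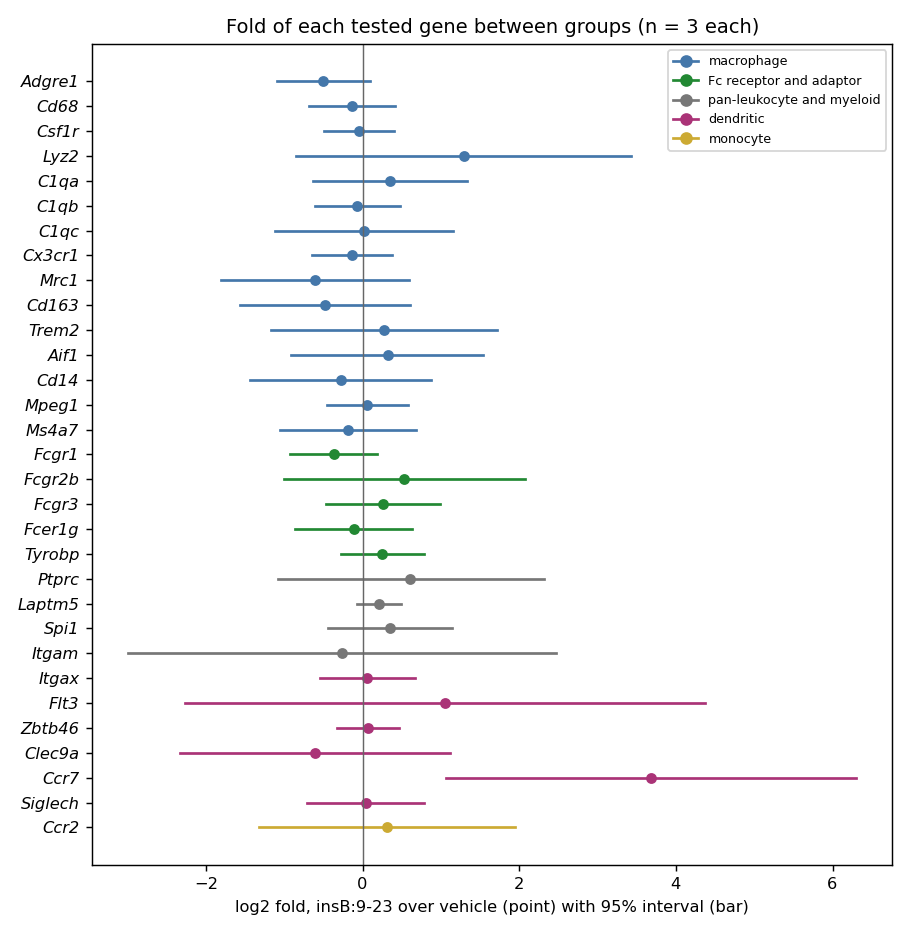
Log2 fold of insB:9-23 over vehicle for the 31 tested genes, with points for the estimate and bars for the 95% interval (n = 3 per group). Every interval except that of Ccr7 spans 0, and those of Laptm5, Zbtb46 and Csf1r are narrow while those of Itgam, Flt3 and Ccr7 are wide.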

How the data were processed

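Each library has its own table of raw counts for Ensembl genes, deposited by the authors, as the column headers state. HISAT, featureCounts 1.5.0-p3, DESeq 1.8.3 and the build GRCm38 are listed in the submitters' processing notes, with no role for each. No source used here gives the annotation release, strand setting or treatment of reads in overlapping genes. Without strand, reads of a gene and its antisense partner cannot be told apart. Symbols and merged exon lengths came from GENCODE M21 for 55240 of 55421 IDs. Counts without a symbol made up at most 0.003% of a library. Where a symbol had 2 IDs (Ccl19 and Ccl21a), the one with more counts was used.

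The test was that of edgeR 4.0.16 (R 4.3.3): filterByExpr left 17016 genes, TMM scaling, a robust quasi-likelihood F test of insB:9-23 against vehicle over all 6 libraries, and Benjamini-Hochberg adjustment over all genes at a threshold of 0.05. A standard error is the log2 fold divided by the root of F, and 95% intervals use the t distribution of that fit. DESeq2 1.42.0, other scalings and filters, a replicate block, an acinar covariate and each library left out were alternatives; a lymphocyte covariate, each library left out of the dendritic to macrophage ratio, and that ratio without Itgax and Zbtb46 were added after seeing the data. Libraries of a group differed by a chi-square of 79.96 to 247.1 per degree of freedom, so none repeats another. P-values measure the spread between libraries, which may be technical.

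In simulated data for insB:9-23 against vehicle (16435 genes tested) edgeR made 89 calls, 8 of them false, and found 64 of 100 genes altered 4-fold and 17 of 100 altered 2-fold. The altered genes were drawn from those with a mean above 1 CPM, a level that 25 of the 31 tested genes of the set reached. The 34 genes and all lists were chosen with earlier results of these data known. All 34 genes are accounted for; of the wider lists the 3 genes with the highest mean CPM and the 2 with the smallest p are named, except some that are not reported here, and other names (Ms4a1, Cd3g, Gm49368, Clec1b) were chosen after their values were seen. Promoter sequences are from RefSeq, build GRCm38.p6.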

Additional observations from a re-analysis of the deposited data

How the results depend on the processing

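No result for a single gene changed direction past the threshold: of 458 values (31 genes, 15 alternatives where fitted), 457 stayed on the same side of it, 12 of 31 genes kept the sign of their log2 fold in every alternative in which they were fitted, and the 1 exception past the threshold was Ccr7 with DESeq2 (log2 fold 3.7, adjusted p = 0.019). DESeq2 called 116 genes in all and 1 of this set, against 14 and 0 with edgeR. The acinar covariate gave 9 calls over all genes. Leaving out 1 library gave 16 to 26 calls over all genes (23 without vehicle replicate 1, 25 without insB:9-23 replicate 1, 26 without insB:9-23 replicate 3) and 0 in this set each time. The cause was not tested. Library totals alone moved the median of all genes to -0.145; the macrophage median was then -0.183 and the dendritic median -0.0711, against -0.067 and 0.067.

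Without insB:9-23 replicate 2 the macrophage median was -0.227 and the dendritic median -0.141, and with each library left out they ranged from -0.227 to 0.0629 and from -0.141 to 0.392. The low-count filter was rerun in each of these fits, so the dendritic median covered 6 to 8 genes. The log2 difference between groups in the dendritic to macrophage ratio was 0.09; it was 1.02 with medians of log2(CPM + 0.1) in place of sums, 0.776 without Itgax and Zbtb46, and -0.0357 to 0.233 with each library left out. Over all tested genes, same-numbered libraries correlated at -0.0349, -0.0637 and -0.0249 in their deviations from the group means. No library correlated best with its own number. Single genes could still follow the number: Cx3cl1 was low in replicate 1 and C1qc in replicate 2 of each group. Whether same-numbered libraries shared a batch was not tested. With the replicate block 0 genes were called over all (605 at an unadjusted p below 0.05) and 0 in this set, with medians of -0.0986 and 0.0375. At this depth 3 counts are 0.0475 to 0.0655 CPM, and differences in Batf3, Xcr1 and Cd209a, which did not pass the low-count filter, were not detectable.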
